A study of Caenorhabditis elegans with 12 samples.

Results

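The sperm and major sperm protein genes of Caenorhabditis elegans were followed through RNA immunoprecipitation (IP) of the 3 FLAG-tagged Y-box proteins CEY-1, CEY-2 and CEY-4. Members were taken by symbol: every msp, msd, ssp, spe and numbered nspd gene, together with fer-1, gsp-3 and gsp-4. The rule also named peel-1, which matched no row. It found 87 of the 20182 genes in the count table, with 85 distinct symbols, because msd-1 and ssp-9 each appeared under 2 identifiers. They comprised 30 msp, 4 msd, 10 nspd and 12 ssp genes, 29 spe genes with fer-1 counted among them, and both gsp genes. Of the 20182 genes, 18778 (93%) had a symbol.

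RNA was recovered from whole young adult worms by a FLAG IP, which captures the tagged protein with its RNA, or by a MYC IP, which served as the background because the labelled transgenes carry no MYC tag. There were 2 libraries for each IP in each of 3 strains, 12 libraries in 6 groups, and the labels do not say whether the 2 came from separate cultures, so p-values measure only the spread between libraries. The strain called CEY1 carried rrrSi300, FLAG(1x)-tagged cey-1 under the cey-1 promoter. The strain called CEY2 carried rrrSi233, tagged cey-2 under the cey-2 promoter, and the strain called CEY4 carried rrrSi307, tagged cey-4 under the dpy-30 promoter. Each transgene was on chromosome I with an operon-linked nuclear GFP reporter (PEST:GFPH2B, tbb-2 3'UTR) and the unc-119(+) marker, in the MYC groups as in the FLAG groups. The labels mention no loss of the endogenous cey genes and give no sex for the worms.

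Hermaphrodite germ cells first form sperm and then switch to oocytes, so a young adult holds stored sperm beside growing oocytes. Sperm transcripts are made in spermatocytes, because transcription stops before the meiotic divisions end, and mature sperm make no new protein. Major sperm protein (MSP), encoded by many near-identical msp genes, forms the filaments on which the amoeboid sperm crawls and also signals to oocytes. The spe and fer genes were named for mutants with defective sperm. Y-box proteins bind mRNA widely, and CEY-2 is known as a germline protein while CEY-1 and CEY-4 are present in soma and germline. No sequences are shown for these genes.

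Sperm transcripts were a trace in every library. Together the 87 genes took 0.0229% to 0.0714% of the counts of a library, which is 1175 to 12762 counts. FLAG libraries held 22915137 to 33529549 counts and MYC libraries 3353523 to 12802412. The msp genes still had more counts with MYC in each strain, together 17 to 191 against 9 to 42 with FLAG. Precision for low genes thus did not follow total depth alone. Levels are counts scaled to a library of 1000000 (CPM), and 1 CPM corresponded to 3.35 counts in the smallest library. Of the 87 genes, 56 passed the filter on low counts and were tested, 13 had no count in any library, and the other 18 reached at most 7 counts in a library. The 31 untested genes were 20 of the 30 msp genes, 2 of 4 msd rows (both msd-1), 3 of 10 nspd, 4 of 12 ssp, spe-27 and spe-29. Among the groups, the MYC libraries of the CEY2 strain stood apart, with lower levels of most sperm genes than the MYC libraries of the other strains. This enters each CEY2 comparison below.

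The CPM were scaled by TMM, edgeR's trimmed mean of log ratios between libraries. Changes are log2 ratios of FLAG over MYC with standard errors from edgeR, and a gene was called at an adjusted p under 0.05 over all 15194 genes tested. Scaling mattered here: TMM factors were 0.548 to 0.640 in FLAG libraries and 1.51 to 2.13 in MYC libraries. Scaling by total counts moved the median gene by −1.49 with CEY1, −1.71 with CEY2 and −1.40 with CEY4 on the log2 scale. All directions are therefore relative to the bulk of genes in the same IP, and the total-count value is given wherever it turns a call that a gene was higher.

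Most sperm genes lay below the bulk of genes in the FLAG IPs, with a few spe genes and fer-1 far above it. With CEY1, 8 of the 56 tested genes were called higher than in the MYC IP and 30 lower, 14.3% and 53.6%, against 32.3% and 34.4% of all genes tested. With CEY2 the counts were 7 higher and 19 lower, 12.5% and 33.9%, against 34.9% and 34.1% of all genes. With CEY4 they were 7 higher and 33 lower, 12.5% and 58.9%, against 31.5% and 37% of all genes. The 2 FLAG libraries lay above the 2 MYC libraries for 10 genes and below for 36 with CEY1 (37.3% and 43.9% of all genes), for 9 and 29 with CEY2 (38% and 45.3%), and for 8 and 44 with CEY4 (35.6% and 48.1%). The share of lower calls exceeded the background with CEY1 and CEY4 and lay at it with CEY2, and the share of higher calls lay under the background in all 3 strains. Median log2 ratios were −1.35 with CEY1, −1.52 with CEY2 (−1.34 with genes at 0 in a group set to their bound) and −1.56 with CEY4, beside −0.26, −0.41 and −0.35 over all genes tested. Scaling by total counts left 1, 2 and 2 genes called higher, and 47, 43 and 53 called lower. Over all 15194 genes tested that scaling gave 1647, 2013 and 1405 higher and 10849, 10892 and 12112 lower, so most genes were lower. Without the second CEY1 FLAG library, 19 instead of 30 genes were called lower with CEY1.

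**Figure D1:**
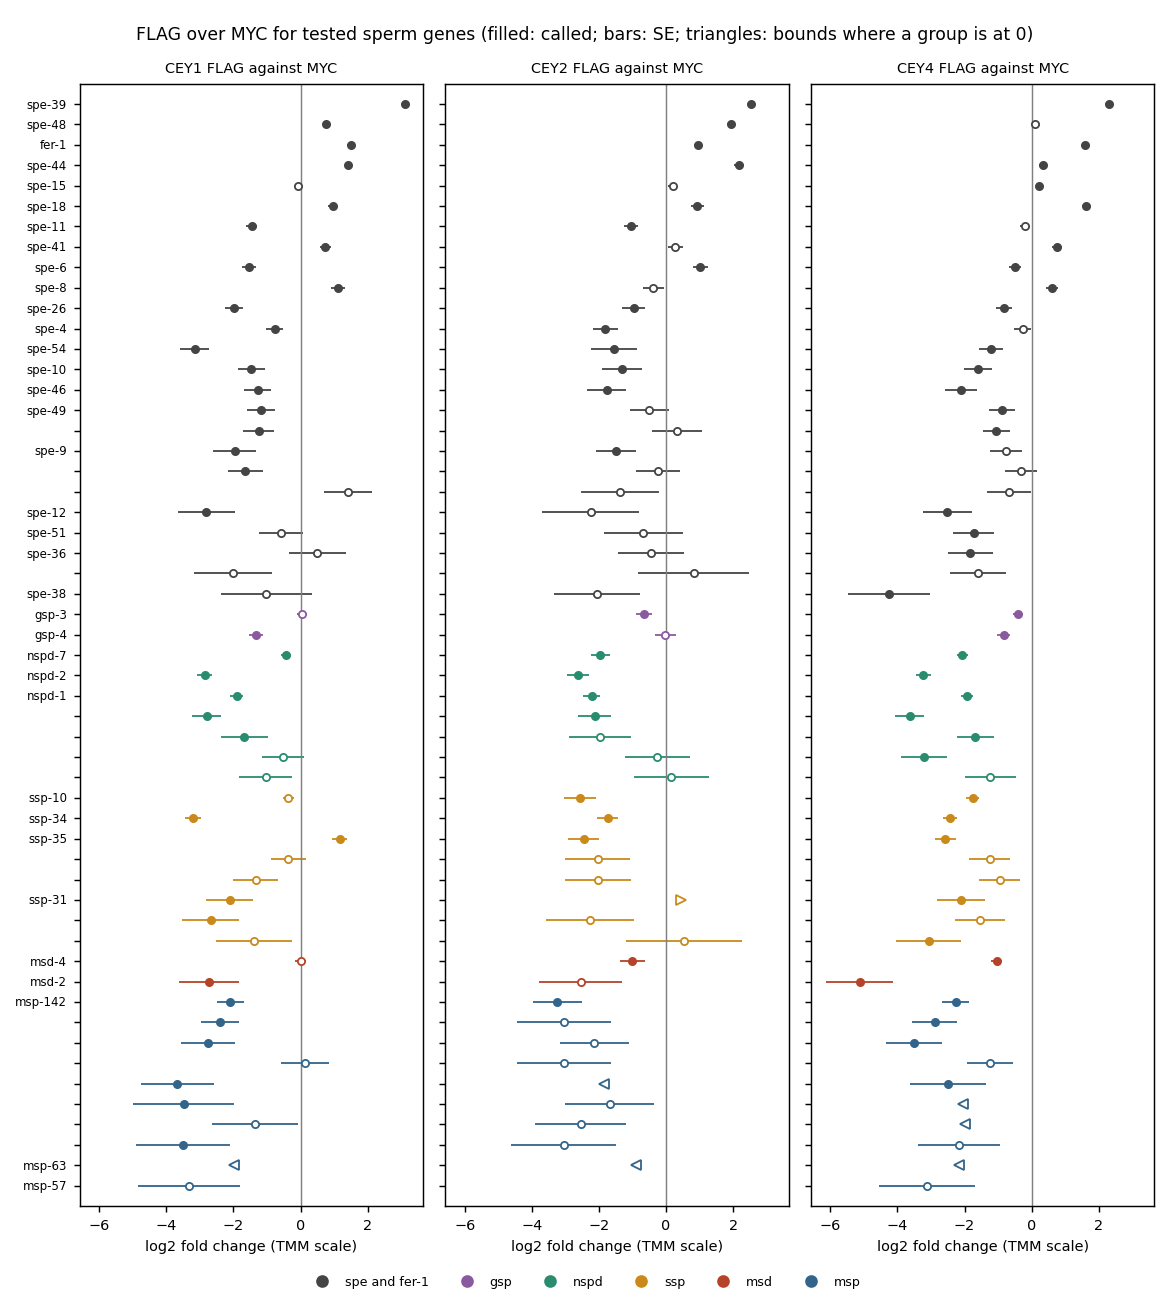
Log2 ratio of FLAG over MYC (TMM scale) for tested sperm genes, 1 row per gene coloured by family, with names on the genes described in the text and 1 panel per strain, with filled points for called genes, bars for SE, and triangles for bounds where a group is at 0. The msp and nspd genes lie mainly left of 0, while the spe genes spread from well below 0 to 3.11 for spe-39 with CEY1, and msp-57 with CEY2 is not drawn because both IPs were at the counting floor.

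Genes of sperm assembly and of the spermatogenesis programme spread widely in their ratios, and genes outside this group, fer-1 and spe-48 below, also held high ones. The strongest assembly gene was spe-39 (WBGene00004975). It encodes a protein of vesicle trafficking needed for the membranous organelles of sperm and also acts in other tissues. With CEY1 its levels were 389 and 370 CPM in the FLAG libraries and 43.6 and 43.9 CPM in the MYC libraries. With CEY2 they were 154 and 161 against 23.4 and 31.2 CPM, and with CEY4 220 and 215 against 45.1 and 43.2 CPM. Every FLAG library was above every MYC library of its strain. The log2 ratios were 3.11 ± 0.08 (SE, adjusted p = 7.97e-32), 2.53 ± 0.09 (6.71e-27) and 2.30 ± 0.07 (1.59e-28), that is 8.66-, 5.79- and 4.92-fold. This was the only sperm gene called higher in all 3 strains under total-count scaling too, at 1.62, 0.80 and 0.89.

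A second member of the assembly group, spe-44 (WBGene00007732), encodes a transcription factor of the spermatogenesis programme. Its levels were 65.3 and 63.4 CPM with FLAG against 23.0 and 24.9 CPM with MYC in the CEY1 strain, and 38.7 and 39.4 against 9.48 and 7.84 CPM in the CEY2 strain. In the CEY4 strain they were 29.8 and 32.8 against 27.6 and 21.8 CPM, with both FLAG libraries still above both MYC libraries by a small margin. In log2 terms the ratios were 1.42 ± 0.11 (adjusted p = 4.95e-15), 2.17 ± 0.14 (1.89e-17) and 0.34 ± 0.10 (0.00411), and under total-count scaling −0.07, 0.44 and −1.08. The CEY4 call was lost without the second CEY4 FLAG library (0.27, adjusted p = 0.0802) and without the second CEY4 MYC library (0.19, adjusted p = 0.124).

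The gene spe-18 (WBGene00009308), needed to assemble MSP into fibrous bodies, was called higher in every strain, though under total-count scaling the CEY1 and CEY2 ratios turned to −0.53 and −0.80 and the CEY4 ratio was 0.20 with no call. Its levels were 29.3 and 33.7 CPM with FLAG against 14.2 and 17.6 CPM with MYC for CEY1, and 9.21 and 9.18 against 4.61 and 5.04 CPM for CEY2. For CEY4 they were 34.3 and 32.9 against 11.3 and 10.6 CPM, and the FLAG and MYC libraries did not overlap in any strain. Log2 ratios came to 0.96 ± 0.13 (adjusted p = 1.57e-08), 0.93 ± 0.19 (5.45e-05) and 1.62 ± 0.12 (9.6e-16).

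Not every assembly gene followed. For spe-15 (WBGene00004969), a myosin that helps sort material between spermatids and the residual body, FLAG levels were 30.5 and 35.1 CPM against 33.0 and 35.9 CPM with MYC for CEY1, 15.1 and 15 against 12.5 and 13.9 CPM for CEY2, and 38.4 and 38.1 against 34.6 and 31.3 CPM for CEY4. The CEY1 groups overlapped. This gave log2 ratios of −0.08 ± 0.11 (adjusted p = 0.512), 0.19 ± 0.14 (0.22) and 0.21 ± 0.10 (0.0482). The last was called higher by a thin margin that 7 of the 12 single-library omissions removed (either library of each FLAG group, or the second CEY4 MYC library, with adjusted p from 0.0546 to 0.214), and total-count scaling turned it to −1.20. In the annotation used for names spe-15 overlaps gst-25, and the counting was not stated to use strand.

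Lower in all 3 strains were spe-26, a kelch-like protein of spermatocyte organization, at −1.98, −0.97 and −0.82, and spe-10, a palmitoyltransferase of fibrous body organelles, at −1.46, −1.32 and −1.59. The annotation places spe-26 over R10H10.3. The genes spe-6, which also acts in MSP assembly, and spe-4 were counted with the activation genes below and not here. Over the 7 tested genes of assembly and meiosis, 3 were higher and 3 lower with CEY1, 3 and 2 with CEY2, and 4 and 2 with CEY4. Beside these, 32.3%, 34.9% and 31.5% of all genes tested were higher and 34.4%, 34.1% and 37% lower.

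**Figure D2:**
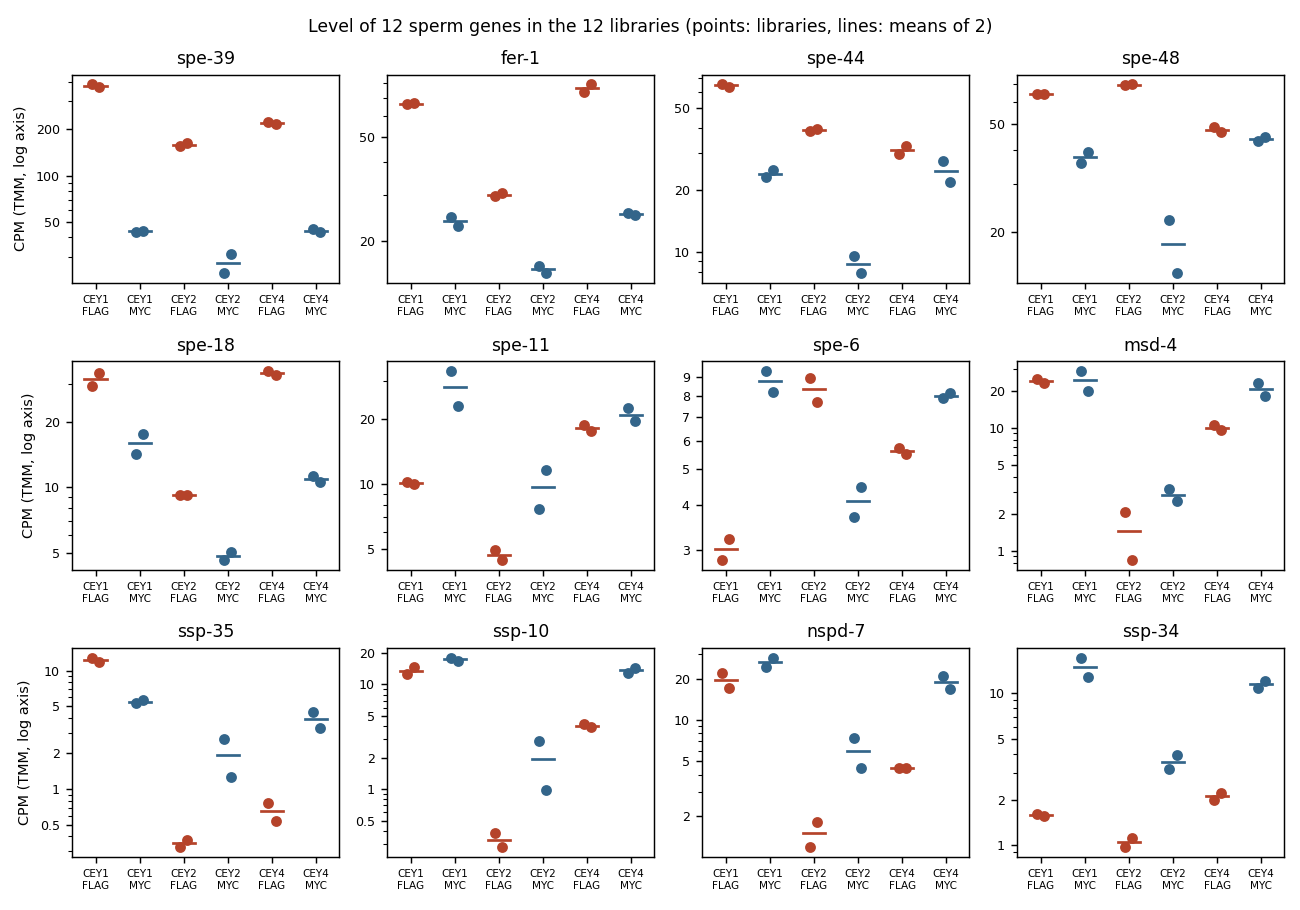
Level in CPM (TMM-scaled, log axis) of 12 sperm genes in the 12 libraries, grouped by strain and IP, with points for libraries and lines for the mean of 2. The panels for spe-39, fer-1 and spe-18 have FLAG above MYC in all 3 strains, while ssp-35 is above it only with CEY1 and spe-6 only with CEY2.

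Genes of sperm activation, the step that turns a round spermatid into a crawling sperm, were divided. The founding ferlin gene fer-1 (WBGene00001414), needed for membranous organelles to fuse with the cell surface, was at 66.3 and 67.2 CPM with FLAG and 24.9 and 22.9 CPM with MYC for CEY1. For CEY2 it was at 29.8 and 30.4 against 16.2 and 15.1 CPM, and for CEY4 at 74.1 and 79.3 against 25.7 and 25.2 CPM. FLAG was above MYC without overlap in each strain. The log2 ratios were 1.49 ± 0.10 (adjusted p = 2.69e-17), 0.94 ± 0.12 (1.78e-09) and 1.59 ± 0.09 (2.67e-20), and total-count scaling gave −0.00048, −0.79 and 0.18.

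The kinase gene spe-6 (WBGene00004960), which acts in MSP assembly and holds back activation, moved in opposite directions. Its levels were 2.81 and 3.21 CPM with FLAG against 9.36 and 8.16 CPM with MYC for CEY1, 8.94 and 7.69 against 3.69 and 4.48 CPM for CEY2, and 5.74 and 5.51 against 7.89 and 8.10 CPM for CEY4. No groups overlapped: FLAG was below MYC for CEY1 and CEY4 and above it for CEY2. Log2 ratios of FLAG over MYC were −1.53 ± 0.22 (adjusted p = 5.4e-08), 1.02 ± 0.22 (7.03e-05) and −0.51 ± 0.17 (0.0106), and the CEY2 value turned to −0.70 under total-count scaling. Levels of the MYC libraries also differed between strains for this gene, with the CEY2 libraries lowest.

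The tyrosine kinase gene spe-8, of the activation pathway, was called higher with CEY1 (1.11 ± 0.20) and CEY4 (0.61 ± 0.19) and had −0.38 ± 0.30 with CEY2 (adjusted p = 0.262). Total-count scaling turned both higher values, to −0.38 and −0.81. The presenilin gene spe-4 (WBGene00004958) had FLAG levels of 4.15 and 3.29 CPM against 6.84 and 6.07 CPM for CEY1, 0.758 and 0.886 against 2.11 and 3.78 CPM for CEY2, and 2.87 and 2.88 against 3.84 and 3.04 CPM for CEY4. FLAG was below MYC in each strain, narrowly so with CEY4. The corresponding log2 ratios were −0.78 ± 0.25 and −1.81 ± 0.37, both called, and −0.26 ± 0.25, which was not (adjusted p = 0.356). The gene spe-46 was called lower with all 3 proteins (−1.28, −1.77 and −2.11), and spe-12, a membrane protein of the same pathway as spe-8, with CEY1 and CEY4 (−2.82 and −2.52). Over the 9 tested activation genes, 2 were higher and 5 lower with CEY1, 2 and 2 with CEY2, and 2 and 4 with CEY4. Shares over all genes tested were 32.3%, 34.9% and 31.5% higher and 34.4%, 34.1% and 37% lower.

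Among 8 tested genes for the sperm surface and its contact with the egg, 1 was higher and 3 lower with CEY1, 0 and 2 with CEY2, and 1 and 4 with CEY4. Over all genes tested, 32.3%, 34.9% and 31.5% were higher and 34.4%, 34.1% and 37% lower. The higher calls lay under these shares in each strain. The lower calls lay above them with CEY1 and CEY4 and under them with CEY2, on only 8 genes. The calcium channel gene spe-41 (WBGene00004976), which sperm need to fertilize, was at 16.6 and 17.6 CPM against 11.7 and 9.11 CPM for CEY1, and at 15.6 and 17.1 against 8.56 and 10.9 CPM for CEY4. FLAG was above MYC in both, with log2 ratios of 0.74 ± 0.16 and 0.75 ± 0.14 (adjusted p = 1.46e-05 for CEY4), and total-count scaling turned them to −0.75 and −0.66. For CEY2 it was 5.26 and 5.13 against 3.95 and 4.62 CPM, at 0.28 ± 0.23 (adjusted p = 0.279). The EGF-repeat protein gene spe-9 was called lower with CEY1 and CEY2 (−1.97 and −1.50) and had −0.76 ± 0.47 with CEY4 (adjusted p = 0.15). The secreted-protein genes spe-36 and spe-51 were called lower with CEY4 (−1.83 and −1.73). The annotation has spe-9, spe-36, spe-38 and spe-49 overlapping other coding genes.

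A paternal factor that the embryo needs is encoded by spe-11 (WBGene00004965). Its levels were 10.2 and 9.94 CPM with FLAG against 33.4 and 23.0 CPM with MYC for CEY1, 4.93 and 4.43 against 7.64 and 11.6 CPM for CEY2, and 18.7 and 17.6 against 22.4 and 19.5 CPM for CEY4. FLAG lay below MYC in every strain, and the CEY4 gap was the narrow one. The log2 ratios were −1.46 ± 0.16 (adjusted p = 1.06e-10), −1.04 ± 0.21 (3.64e-05) and −0.21 ± 0.14 (0.178). The gene spe-48 (WBGene00021771) was at 64.4 and 64.3 against 36 and 39.5 CPM for CEY1, 69.2 and 70.0 against 22.1 and 14.1 CPM for CEY2, and 48.7 and 46.5 against 43.2 and 44.8 CPM for CEY4. FLAG was again above MYC throughout, far above for CEY2 and barely for CEY4. Its ratios were 0.76 ± 0.10 (adjusted p = 1.08e-08), 1.93 ± 0.12 (8.52e-19) and 0.11 ± 0.09 (0.264), against −0.73, 0.20 and −1.30 under total-count scaling, where the CEY2 call was lost (adjusted p = 0.116). For spe-54 the calls were lower in all strains, at −3.15, −1.54 and −1.22.

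The sperm type 1 phosphatases gsp-3 and gsp-4, a pair of near-identical genes needed for sperm meiosis and movement, were compared with gsp-1 and gsp-2, their widely expressed relatives. For gsp-3 FLAG levels were 18.2 and 16.1 CPM against 17.7 and 16.0 CPM for CEY1, and its ratios were 0.04 ± 0.15 (adjusted p = 0.846), −0.66 ± 0.24 (0.0156) and −0.40 ± 0.14 (0.0139). For gsp-4 the ratios were −1.33 ± 0.21, −0.03 ± 0.32 (adjusted p = 0.946) and −0.83 ± 0.19. Each was thus called lower in 2 of 3 strains, but reads of one copy could have been counted for the other. Neither gsp-1 nor gsp-2 was called lower in any strain, and both were called higher with CEY2, but under total-count scaling both were called lower in each strain.

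The nspd genes form a sperm-transcript family of small nematode-specific peptides. Of 10, 7 were tested, and 5 of these were called lower in FLAG with CEY1, 4 with CEY2 and 6 with CEY4, and 0 higher. The background over all genes tested was 34.4%, 34.1% and 37% lower and 32.3%, 34.9% and 31.5% higher. Levels of nspd-2 (WBGene00010633) were 3.26 and 2.74 CPM with FLAG against 24.9 and 19.4 CPM with MYC for CEY1, 0.704 and 1.17 against 6.45 and 5.32 CPM for CEY2, and 1.82 and 2.10 against 22.5 and 14.1 CPM for CEY4. All FLAG libraries were below all MYC libraries of the 3 strains. Ratios on the log2 scale were −2.86 ± 0.22 (adjusted p = 5.83e-15), −2.62 ± 0.33 (2.64e-09) and −3.22 ± 0.22 (1.47e-16), that is 7.25-, 6.16- and 9.33-fold lower. The levels of nspd-1 (WBGene00022754) were 4.66 and 4.85 against 19.4 and 16.3 CPM for CEY1, 1.52 and 1.72 against 9.48 and 5.60 CPM for CEY2, and 4.22 and 3.60 against 15.4 and 14.4 CPM for CEY4. Again the IPs did not overlap, at −1.90 ± 0.19 (adjusted p = 1.35e-11), −2.21 ± 0.26 (3.68e-10) and −1.93 ± 0.18 (2.1e-12).

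A smaller CEY1 change was seen for nspd-7 (WBGene00012781). Its levels were 21.8 and 17.1 CPM with FLAG against 24.2 and 28.4 CPM with MYC for CEY1, 1.19 and 1.82 against 7.37 and 4.48 CPM for CEY2, and 4.51 and 4.49 against 20.8 and 16.8 CPM for CEY4. FLAG was below MYC in all strains, by little for CEY1, with ratios of −0.43 ± 0.15 (adjusted p = 0.0107), −1.96 ± 0.28 (8.29e-08) and −2.06 ± 0.17 (5.92e-14). Median ratios of the tested family were −1.67, −1.98 and −2.06. Members of the nspd, ssp and msd families resemble each other, so a read may have been counted for a relative, since the treatment of reads that fit several genes was not stated.

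The ssp genes encode small sperm-specific proteins with an MSP domain. Of 8 tested, 3 were lower with CEY1, 3 with CEY2 and 5 with CEY4, with 1, 1 and 0 higher. All genes tested gave 34.4%, 34.1% and 37% lower and 32.3%, 34.9% and 31.5% higher. The lower calls with CEY1 and CEY2 lay near those shares. For ssp-34 (WBGene00013858) levels were 1.60 and 1.57 CPM with FLAG against 17 and 12.8 CPM with MYC for CEY1, 0.975 and 1.12 against 3.16 and 3.92 CPM for CEY2, and 1.99 and 2.22 against 10.8 and 12.0 CPM for CEY4. FLAG was lower throughout, at −3.21 ± 0.24 (adjusted p = 9.37e-16), −1.74 ± 0.32 (6.61e-06) and −2.44 ± 0.21 (1.12e-13).

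For ssp-35 (WBGene00010091) the directions differed by protein. Levels were 12.8 and 11.8 CPM with FLAG against 5.31 and 5.60 CPM with MYC for CEY1, and 0.325 and 0.373 against 2.63 and 1.26 CPM for CEY2. For CEY4 they were 0.761 and 0.539 against 4.51 and 3.26 CPM, so FLAG was above MYC for CEY1 and below it for the others, without overlap. The ratios were 1.17 ± 0.22 (adjusted p = 1.45e-05), −2.46 ± 0.47 (1.41e-05) and −2.57 ± 0.32 (3.43e-09), and under total-count scaling the CEY1 value was −0.32.

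Levels of ssp-10 (WBGene00006039) were 12.6 and 14.6 against 18 and 16.9 CPM for CEY1, 0.379 and 0.280 against 2.90 and 0.980 CPM for CEY2, and 4.16 and 3.90 against 12.8 and 14.5 CPM for CEY4. All FLAG libraries were lower than the MYC libraries, but the CEY1 ratio of −0.36 ± 0.17 was not called (adjusted p = 0.0563), while −2.56 ± 0.48 with CEY2 and −1.76 ± 0.18 with CEY4 were. The single higher call with CEY2 was ssp-31, which had 11 counts over both FLAG libraries and 0 over both MYC libraries of that strain. Against a floor of 3 counts over the group this is at least 1.35-fold, but the call was lost under total-count scaling (adjusted p = 0.188), and with CEY1 and CEY4 the gene was called lower.

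The msd gene msd-4 (WBGene00016447), an MSP-domain protein gene, was at 25 and 23.3 CPM with FLAG against 29 and 20 CPM with MYC for CEY1, where the libraries overlapped (0.01 ± 0.16, adjusted p = 0.981; −1.48 under total-count scaling). For CEY2 it was at 2.06 and 0.839 against 3.16 and 2.52 CPM, and for CEY4 at 10.5 and 9.59 against 23.1 and 18.1 CPM, with FLAG below MYC in both. The ratios were −1.01 ± 0.38 (adjusted p = 0.0166) and −1.04 ± 0.16 (3.03e-07). The CEY2 call was lost without the second CEY2 FLAG library (−0.45, adjusted p = 0.295) or the first CEY2 MYC library (−0.81, adjusted p = 0.177). The other tested member, msd-2, was called lower with CEY1 and CEY4.

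As a sum the msp genes were lower in FLAG, on few counts. All 30 together held 42 and 40 counts in the CEY1 FLAG libraries against 85 and 141 in the MYC libraries, 9 and 10 against 34 and 17 for CEY2, and 20 and 27 against 191 and 132 for CEY4. As CPM that was 2.68 and 3.13 against 11.9 and 13.4 for CEY1, 0.488 and 0.466 against 4.48 and 2.38 for CEY2, and 1.17 and 1.62 against 9.91 and 7.43 for CEY4. Both FLAG libraries were below both MYC libraries in each strain, although the FLAG libraries were the deeper ones. The sums were 4.34-, 7.19- and 6.22-fold lower. Without the first CEY2 MYC library the CEY2 ratio of FLAG to MYC was 0.200 in place of 0.139.

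Of the 10 tested msp genes, 7 were called lower with CEY1, 2 with CEY2 and 7 with CEY4, and 0 higher. Lower calls over all genes tested were 34.4%, 34.1% and 37%, and higher calls 32.3%, 34.9% and 31.5%. Medians were −3.04, −3.05 and −3, and −2.58, −2.35 and −2.22 with genes at 0 set to their bound. The gene msp-142 had 12 and 13 counts with FLAG against 33 and 33 with MYC for CEY1, 1 and 3 against 9 and 6 for CEY2, and 8 and 12 against 61 and 46 for CEY4. Its ratios were −2.09 ± 0.40 (adjusted p = 1.61e-05), −3.24 ± 0.73 (0.000146) and −2.26 ± 0.40 (3.86e-06). For msp-63 no FLAG library held a count, against 4 and 3 counts with MYC for CEY1 and 9 and 6 for CEY4, which is at least 4-fold and at least 4.53-fold lower. Because the copies are near-identical, these values are uncertain per gene, and whether reads shared by several copies entered the sum is not known. In the annotation 13 of the 30 msp genes lie next to another of the 85 genes.

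**Figure D3:**
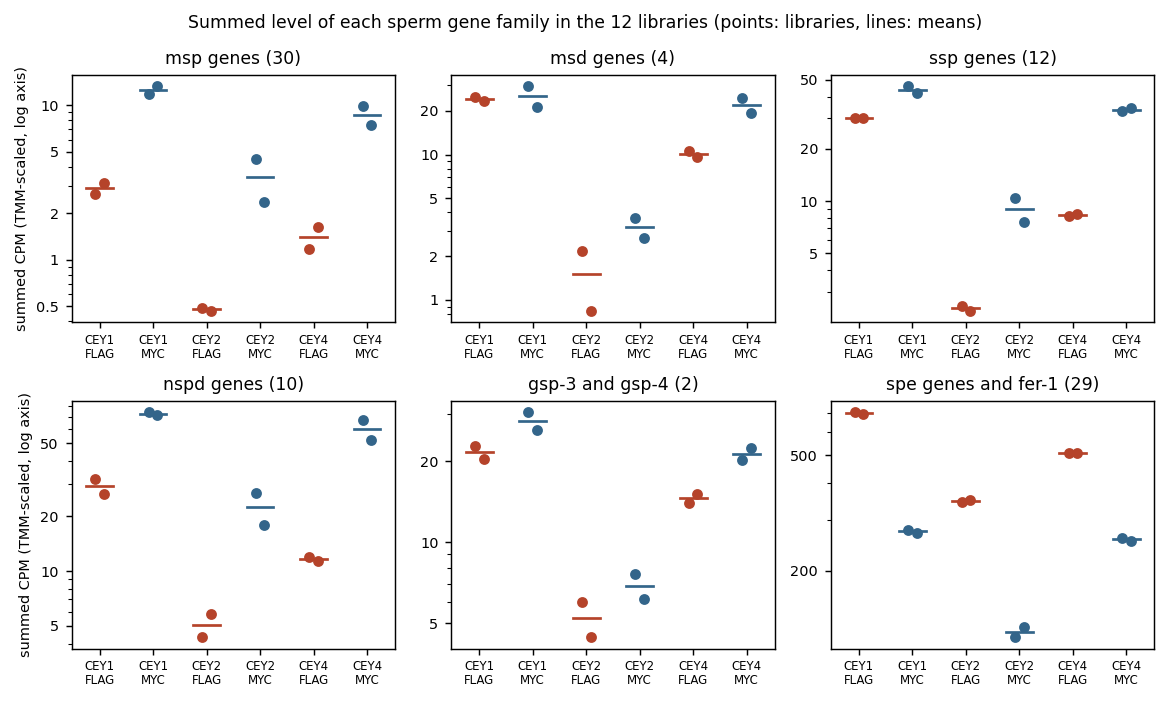
Summed level (CPM, TMM-scaled, log axis) of each sperm gene family in the 12 libraries, by strain and IP, with points for libraries and lines for means of 2. The FLAG points lie below the MYC points for the msp, nspd and ssp families in each strain, and above them for the spe genes with fer-1, whose ratio of sums was 2.54, 2.82 and 1.98 but 0.907, 0.851 and 0.742 under total-count scaling.

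Summed over all 87 genes, the FLAG level was above the MYC level, at 815 and 793 against 470 and 444 CPM for CEY1, 360 and 365 against 171 and 165 CPM for CEY2, and 552 and 554 against 415 and 389 CPM for CEY4. The sum and the count of calls thus point opposite ways. A single gene, spe-39, made up 389 of 815 CPM in the first CEY1 FLAG library and 43.6 of 470 CPM in its MYC counterpart. For CEY2 its mean was 158 of 362 CPM with FLAG and 27.3 of 168 CPM with MYC. For CEY4 it was 218 of 553 and 44.2 of 402 CPM. With CEY2 the other genes together were still higher with FLAG, so spe-39 alone did not account for that sum. Ratios of the sums were 1.76, 2.16 and 1.38, and under total-count scaling 0.628, 0.651 and 0.517.

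The 3 proteins were compared by the difference of log2 ratios between strains, tested in the same edgeR fit. Comparing CEY1 with CEY2, 9 sperm genes had the higher ratio with CEY1 and 6 with CEY2, 16.1% and 10.7%, beside 18.4% and 31.4% of all genes tested. Comparing CEY1 with CEY4, 8 were higher with CEY1 and 5 with CEY4, 14.3% and 8.93%, beside 18.1% and 18.6% of all genes. Comparing CEY2 with CEY4, 5 were higher with CEY2 and 5 with CEY4, 8.93% each, beside 32.3% and 14.7% of all genes. The sperm genes were therefore called at shares below the background in each direction, in part by small margins. At low counts a difference is harder to call, so fewer calls do not show that the ratios were alike. Without the second CEY2 MYC library the last count was 3 in place of 5. In all, 20 of the 56 genes were called in at least 1 difference, and none of the 10 msp genes was. Over all genes, CEY1 against CEY2 alone left only 7618 of 15194 uncalled, so 20 of 56 also lies below the background.

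The genes with the clearest differences were those whose direction was set out above. The ratio of ssp-35 was higher with CEY1 than with CEY2 by 3.63 ± 0.52 (adjusted p = 1.07e-07) and than with CEY4 by 3.74 ± 0.39 (1.5e-10). For spe-6 it was lower with CEY1 than with CEY2, at −2.56 ± 0.31 (adjusted p = 1.7e-09). For spe-44 and spe-48 the ratios were higher with CEY2 than with CEY4 by 1.83 ± 0.18 (adjusted p = 1.39e-11) and 1.82 ± 0.15 (9.31e-14). For spe-39 the ratio was higher with CEY1 than with CEY4 by 0.81 ± 0.11 (adjusted p = 3.12e-08). These differences compare strains whose MYC levels also differed, and the part of that in them was not tested.

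The MYC libraries themselves differed between strains. In MYC libraries of the CEY1 strain, 34 of 56 sperm genes (60.7%) were called higher than in those of CEY2 and 0 lower, against 39.7% and 14.8% of all genes tested. Between CEY2 and CEY4, 0 were higher and 35 (62.5%) lower in CEY2, against 15.4% and 42.4% of all genes. The median differences were 1.53 and −1.34, beside 0.33 and −0.40 over all genes. In total, 30 genes were lower in the CEY2 strain than in both others. Both comparisons share the CEY2 libraries, and no such joint count was taken over all genes, so the 30 has no background here. In place of the 34 and 35 calls, scaling by total counts gave 24 and 20, beside 3370 and 3409 of all 15194 genes tested. The direction stood while the counts fell. Median differences were then 1.095 and −0.86, beside −0.12 and 0.09 over all genes. The MYC libraries are background IPs of whole worms, so the cause of this difference cannot be told from them and was not tested. Markers of other cells moved with this difference too: oocyte markers were also lower in the MYC libraries of CEY2, and most hypodermis and neuron markers higher, with the counts given at the end.

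The levels already given show it gene by gene. For msd-4 the MYC libraries of CEY2, at 3.16 and 2.52 CPM, were below those of CEY1 by 3.08 ± 0.25 on the log2 scale (adjusted p = 1.24e-13) and below those of CEY4 by a difference of −2.86 ± 0.25 (3.07e-13). For ssp-10 the differences were 3.14 ± 0.26 (adjusted p = 2.18e-13) and −2.79 ± 0.26 (2.63e-12). Between CEY1 and CEY4, 3 genes (nspd-7, spe-18 and spe-4) were higher in CEY1 and 0 lower, against 6.19% and 8.35% of all genes, with 14 sperm genes at an unadjusted p under 0.05 and 1 called by DESeq2. The count was 1 without the second CEY4 MYC library, and 5 higher with 1 lower without the first. The spe-18 difference of 0.56 ± 0.14 (adjusted p = 0.00463) was lost without the second CEY1 MYC library (0.38, adjusted p = 0.237). That of spe-4, 0.89 ± 0.25 (adjusted p = 0.0111), was lost without the second CEY4 MYC library (0.74, adjusted p = 0.0747).

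**Figure D4:**
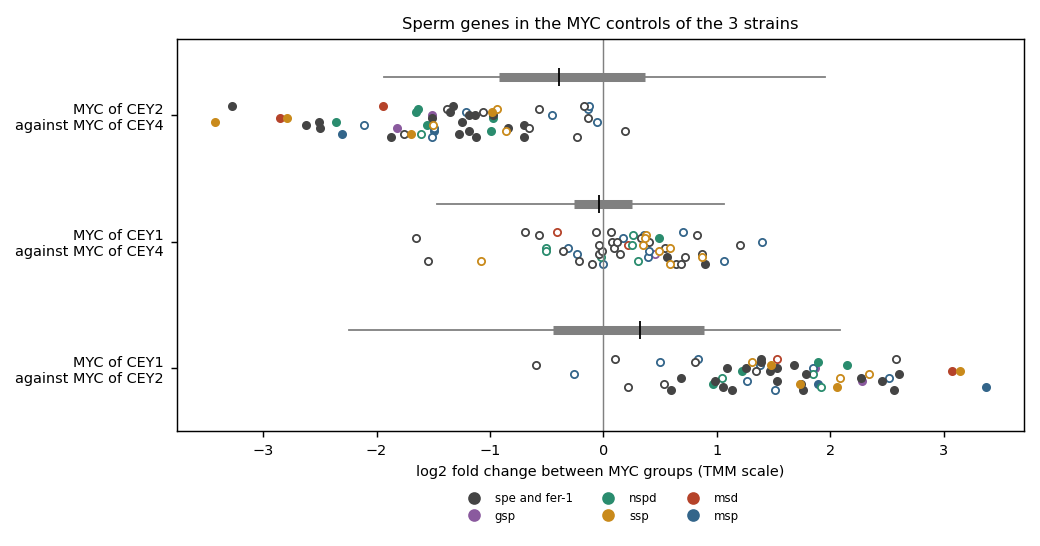
Log2 difference between the MYC libraries of 2 strains for each tested sperm gene (points, open where not called), beside grey bars for the central 50% and 90% of all 15194 genes tested and a tick at their median. Called points lie above 0 where CEY1 is compared with CEY2 and below 0 where CEY2 is compared with CEY4, and ssp-31, with 0 counts in the CEY2 MYC libraries, is left out.

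Other genes of sperm development, outside the set, gave a mixed picture. Of 21 tested from a list of 22, 5 were higher and 11 lower with CEY1, 4 and 7 with CEY2, and 4 and 10 with CEY4. Among all genes tested, 32.3%, 34.9% and 31.5% were higher and 34.4%, 34.1% and 37% lower. The RNA-binding protein genes cpb-1 and fog-1, which act in the germline before and during sperm formation, were called higher with all 3 proteins, at 3.37, 3.23 and 2.17 for cpb-1 and 1.71, 2.09 and 0.84 for fog-1, and under total-count scaling the fog-1 value with CEY4 turned to −0.58. That scaling left 3, 2 and 2 genes of the list higher and 16, 17 and 18 lower. Of all 15194 genes tested, 10849, 10892 and 12112 were then lower. The translation factor gene ife-1 was lower with CEY1 (−2.09) and CEY4 (−0.30) and not called with CEY2 (0.05). In the MYC libraries 16 of these 21 were higher and 2 lower in CEY1 than in CEY2, and 2 higher and 14 lower in CEY2 than in CEY4. Over all genes tested the shares were 39.7% and 14.8%, then 15.4% and 42.4%. Total-count scaling gave 12 higher and 3 lower, then 3 higher and 12 lower. Of all 15194 genes it gave 3370 and 4134, then 4192 and 3409.

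Markers of the other cells in a whole worm were measured beside the sperm genes. All markers had counts in every library. Of 12 oocyte markers, 11 were higher and 1 lower with CEY1, 12 and 0 with CEY2, and 11 and 0 with CEY4, and total-count scaling gave 4 and 8, 12 and 0, and 5 and 6. In the MYC libraries 11 of 12 oocyte markers were also higher in CEY1 than in CEY2, with a median difference of 0.61, and 11 were lower in CEY2 than in CEY4, with a median of −0.71. Total-count scaling gave 7 higher and 1 lower, with a median of 0.16, and 1 higher and 8 lower, with a median of −0.23. Of 6 hypodermis markers, 1 was higher and 5 lower in MYC of CEY1 than of CEY2 (median −1.31), and 5 were higher and 1 lower in CEY2 than in CEY4 (median 2.87). The cuticle collagen gene rol-6 differed by −2.44 and 4.15 in these comparisons, and dpy-7 by −2.45 and 3. The 1 marker that went the other way was col-19, the most abundant of the 6, at 0.74 and −0.68. Of 6 neuron markers, 0 were higher and 4 lower in CEY1 than in CEY2 (median −0.56), and 5 higher and 0 lower in CEY2 than in CEY4 (median 0.75). Body wall muscle markers gave 6 higher and 2 lower, then 2 and 4, of 8, and intestine markers 3 and 2, then 2 and 5, of 8. Summed levels in the MYC libraries of CEY1, CEY2 and CEY4 were 9291 ± 400, 6561 ± 55.4 and 9989 ± 6.79 CPM (SD, n = 2) for oocyte markers and 54.3 ± 1.88, 85.1 ± 4.65 and 53.3 ± 0.845 CPM for neuron markers. For hypodermis markers they were 992 ± 50.1, 829 ± 23.5 and 898 ± 63.5 CPM, so the sum was lowest in CEY2 although most of the markers were higher there. Between FLAG and MYC, 6 of 8 body wall muscle markers were higher and 0 lower with CEY1, 0 and 6 with CEY2, and 6 and 2 with CEY4. Intestine markers gave 5 and 2, 2 and 6, and 4 and 2 of 8, hypodermis markers 4 and 2, 0 and 5, and 2 and 3 of 6, and neuron markers 3 and 1, 1 and 4, and 3 and 3 of 6. Under total-count scaling at most 2 markers of each somatic list were called higher with any protein. Their part in the results for the sperm genes was not tested.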

How the data were processed

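The authors deposited raw counts per gene for all libraries in 1 table, and the sources used here do not name the aligner, build, annotation, strand use or treatment of reads that fit several genes. A deposited table of normalized values was not used. Members, gene lists and tests were chosen with earlier results of these data known. All 15194 genes past filterByExpr (minimum count 10) were scaled by TMM and fitted with 1 mean per group over the 12 libraries (R 4.3.3, edgeR 4.0.16, limma 3.58.1). The two-sided quasi-likelihood F test was used, with Benjamini-Hochberg adjustment over all genes, calls at 0.05, and SE from the F value. The common biological coefficient of variation was 0.0476, and the fit was tested on simulated data. Precision at low counts is limited by depth.

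Values in each library are given for the 8 genes with the highest mean CPM, the 4 called genes of lowest adjusted p per direction in each FLAG comparison, and 2 in each other comparison. Bounds for genes at 0 used 3 counts over the group and cover counting error only. Alternatives were total-count and RLE (relative log expression) scaling, no filter, DESeq2 1.42.0, only the groups compared, msp rows summed, a replicate block and omission of each library. Names and neighbours came from RefSeq tables (WBcel235). Results for 2 of the genes tested are not reported here singly.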

Additional observations from a re-analysis of the deposited data

Results flagged for a closer look

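The 12 differences below, of 10 sperm genes, are the 2 of lowest adjusted p in each direction of each comparison among the 20 genes whose log2 ratio of FLAG over MYC differed between strains by a test of the difference itself (edgeR quasi-likelihood F test, adjusted over all genes). With CEY1 minus CEY2 the differences were 3.63 for ssp-35, 1.53 ± 0.32 for nspd-7 (adjusted p = 8.02e-05), −2.56 for spe-6 and −1.17 ± 0.16 for spe-48 (2.31e-08). With CEY1 minus CEY4 they were 3.74 for ssp-35, 0.815 for spe-39, −1.25 ± 0.21 for spe-11 (adjusted p = 4.25e-06) and −0.658 ± 0.18 for spe-18 (0.00255). The spe-18 difference was lost without the second CEY1 MYC library (−0.48, adjusted p = 0.0835). With CEY2 minus CEY4 they were 1.82 for spe-48, 1.83 for spe-44, −0.65 ± 0.15 for fer-1 (adjusted p = 0.000265) and −1.55 ± 0.44 for spe-4 (0.00319). The spe-4 difference was lost without the second CEY2 MYC library (−1.08, adjusted p = 0.101).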

How the results depend on the processing

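Total-count scaling was the alternative that moved most of the counts for FLAG against MYC. Genes called higher with FLAG were then 1, 2 and 2 for CEY1, CEY2 and CEY4, and genes called lower 47, 43 and 53. All 15194 genes tested gave 1647, 2013 and 1405 higher and 10849, 10892 and 12112 lower. Sperm genes lower in MYC of CEY2 than of CEY4 numbered 20, beside 3409 of all genes. Log2 ratios turned negative for CEY1 at fer-1 (−0.00048), spe-44 (−0.0735), spe-48 (−0.73), spe-18 (−0.53), spe-41 (−0.75), spe-8 (−0.38), ssp-35 (−0.32) and msd-4 (−1.48). For CEY2 they did so at fer-1 (−0.79), spe-18 (−0.80), spe-6 (−0.70) and spe-15 (−1.54). For CEY4 the genes were spe-44 (−1.08), spe-15 (−1.20), spe-48 (−1.30), spe-41 (−0.66) and spe-8 (−0.81). Of these, msd-4 with CEY1, spe-15 with CEY2 and spe-48 with CEY4 had not been called higher. Ratios of summed levels became 0.628, 0.651 and 0.517 for all genes and 0.0820, 0.0420 and 0.0604 for the msp genes. DESeq2 gave 3 in place of 5 genes higher with CEY2 than with CEY4, 1 in place of 3 higher in MYC of CEY1 than of CEY4, and 20 in place of 35 lower in MYC of CEY2 than of CEY4. The last count was 21 when only the groups compared were fitted. The cause of these shifts was not tested.

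Over the omission of each library, genes lower with CEY1 numbered 19 to 32, and genes whose ratio was lower with CEY2 than with CEY4 numbered 3 to 6. In MYC of CEY1 against CEY4, 1 to 5 were higher and 0 to 1 lower. The summed msp ratio for CEY2 was 0.107 to 0.200. Counts without the filter, with RLE scaling and with msp rows summed stayed within 1.5 times the reported ones. Of the 30 msp genes, 20 had too few counts to be tested.

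Same-numbered FLAG and MYC libraries did not deviate together (r = −0.00182, −0.0263 and −0.00303), so the numbers were not taken as pairs. With a replicate block, 9, 7 and 6 genes were higher and 28, 19 and 31 lower with CEY1, CEY2 and CEY4. The block gave 7 higher and 6 lower for CEY1 minus CEY2, 8 and 5 for CEY1 minus CEY4, and 4 and 5 for CEY2 minus CEY4. Between MYC groups it gave 34, 4 and 0 higher and 0, 0 and 35 lower.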
